A study of Mus musculus with 24 samples.

Results

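The genotype effect that small intestine (SI) and colon share was measured in all 24 libraries of the series. It is the difference between 12 libraries of sorted cells with phosphomutant ATOH1 (9S/T-A) and 12 with the wild-type protein (WT). Tissue was an additive term in the fit. The genotype term, called the average effect below, is not the plain mean of the 2 tissue values and leans towards the tissue with more counts. Each genotype had 6 libraries of SI and 6 of colon, numbered 2 to 7, with females at numbers 2, 5 and 7 and males at numbers 3, 4 and 6. All mice were homozygous for a knock-in allele at Atoh1 that carries a tamoxifen-inducible Cre after the coding sequence, either Atoh1(WT)CreERT2 or Atoh1(9S/T-A)CreERT2, and all carried a Rosa26 tdTomato (tdTom) reporter on a C57BL/6 background, at 8 to 16 weeks of age. In the 9S/T-A form, all 9 serine or threonine residues that precede a proline are alanine. Each mouse received 3 mg of tamoxifen, and 24 h later live EpCAM+ tdTom+ cells were sorted from the colon and from the proximal 15 cm of the SI, so that every library holds cells in which the Atoh1 locus had driven Cre. The study located the reporter at this time in Paneth and goblet cells and not in cells positive for ChgA or Dclk1.

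The lines were derived separately from targeted ES cells, so a difference carried by the line and a difference made by the mutation cannot be told apart here. According to the series, cells were taken from the SI and the colon of each mouse, so the SI and colon libraries of 1 genotype and number may come from 1 animal. For that reason the main counts are also given with the animal as the replicate. Since the RNA is bulk, fewer cells of a type and less RNA per cell cannot be told apart. By staining of SI, the paper found that Paneth, goblet and enteroendocrine cell numbers did not differ between the lines. By flow cytometry it found equal numbers of tdTom+ cells. Neither count gives the cell types within the sorted libraries.

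ATOH1 is a basic helix-loop-helix (bHLH) transcription factor that commits intestinal progenitors to the secretory lineages, which comprise goblet, Paneth and enteroendocrine cells. It binds DNA at E-boxes (CANNTG) as a dimer with an E protein (Tcf3, Tcf4 or Tcf12). ID proteins have the dimerization region without the basic region that touches DNA, and they hold E proteins away from DNA. Secretory progenitors in turn display Delta ligands that activate Notch in their neighbours, and Notch keeps those neighbours from expressing Atoh1.

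Total counts were between 36 and 65.8 M per library. None of the 60 pairs of libraries within a group held identical values. All 8 epithelial markers passed the filter, and their sum was between 7396 and 11870 CPM (counts scaled to library size) in the 24 libraries. Of 20 leukocyte markers, 15 passed the filter and 0 were called and of the same sign in both tissues. In SI their sum was 1605 to 2428 CPM for WT and 1261 to 1921 CPM for 9S/T-A, nearly all of it Lyz2, a lysozyme that Paneth cells can also express. Without the top gene of each group the SI sum was 53.2 to 104.9 CPM for WT and 33.1 to 102.1 CPM for 9S/T-A, and the colon sum 4.31 to 10.8 CPM for WT and 4.31 to 8.92 CPM for 9S/T-A. Number 7 was the highest library of its group on the first principal component of each tissue in both genotypes, at 41.4 in 9S/T-A SI and 19.1 in WT SI against at most 18.4 and -4.7 in the rest, and at 40.8 and 38.7 in colon against at most 8.31 and 4.47. Where nothing else shows that the numbers are separate mice, p-values measure the spread between these libraries only.

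A gene was called when its adjusted p in the additive fit (edgeR, Benjamini-Hochberg over 17953 genes) was under 0.05. By this rule 332 genes were called, 171 higher (0.952%) and 161 lower (0.897%) in 9S/T-A (1.85% of genes tested in all). Of these, 314 had the same sign of change in SI and in colon and are named common genes here (1.75%), 162 higher (0.902%) and 152 lower (0.847%). The other 18 had opposite signs. With the plain mean of the 2 tissue contrasts, 407 genes were called, 301 of them among the 332, and 385 had the same sign. Among the common genes, 257 were protein coding and 26 were pseudogenes, the size of the change had a median of 0.58 on the log2 scale against 0.0915 over all genes, and 76 differed at least 2-fold. In each tissue on its own, 209 of the common genes had an unadjusted p under 0.05 (1.16% of genes tested), 108 higher (0.602%) and 101 lower (0.563%). Across all genes tested, 54.0% had the same sign in both tissues, and 2332 (13.0%) had an unadjusted p under 0.05 for the average effect.

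With the animal as the replicate (limma voom with a random block), 253 genes were called (1.41%), 201 of them also in the additive fit. In all, 147 common genes moved in both tissues and were called in that fit too (0.819%), 73 higher (0.407%) and 74 lower (0.412%), and 107 of these were protein coding. The fit with the random block keeps all 24 libraries and applies 1 within-animal correlation to every gene. Fits to 1 value per animal called fewer genes. Summed counts gave 130 (103 of the same sign) and mean log2 CPM gave 169 (158). When the replicate number was a block, 834 genes were called (4.65%), 334 higher (1.86%) and 500 lower (2.79%), with 331 of the 332 among them, and 805 of the 834 had the same sign in both tissues (4.48%). Scaled by plain library totals, the calls split into 94 higher and 217 lower, and the median log2 fold change of all genes was -0.071 against -0.0067 with TMM. The genotype effect differed in size between tissues for 10 common genes (interaction, adjusted p under 0.05, of 74 called in all, 0.412%), none of them among the genes named below.

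**Figure D1:**
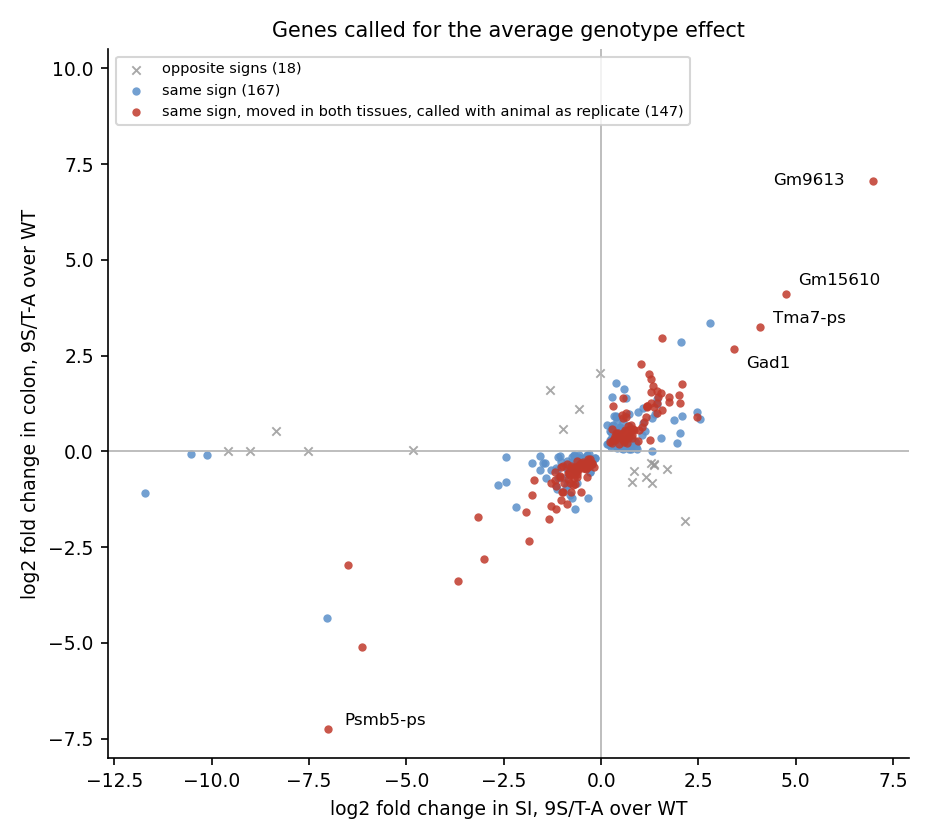
Each point is 1 of the 332 called genes, with its log2 fold change of 9S/T-A over WT in SI (x axis) and in colon (y axis), both from the 4-group fit. Red points are the 147 genes that moved in both tissues and were called with the animal as the replicate, blue points the 167 other genes of the same sign and crosses the 18 of opposite signs, and points far from 0 with no counts in 1 group depend on the prior count and give no measure of size.

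The clearest shared rises among regulators of ATOH1 were those of Id4 and Id2, which inhibit bHLH factors. Of the 7 ID and E protein genes, 2 were common and both were higher, also with the animal as the replicate and with counts summed per animal. In SI, Id4 (ENSMUSG00000021379, chr13:48261427-48264036) had 6.42, 7.52 and 8.31 CPM as the lowest, median and highest of the WT libraries, and those of 9S/T-A were 18.8, 25.2 and 29.6 CPM. In colon WT gave 2.21, 3.48 and 4.70 CPM and the mutant 7.16, 9.09 and 12.2 CPM. The genotypes did not overlap in either tissue, and Id4 was higher in 12 of 12 same-numbered pairs. Here and below, pairs were counted in each tissue. If SI and colon of 1 number are 1 animal, the 12 pairs count each pair of animals in both tissues. The average log2 fold change of Id4 was 1.58 (SE 0.114, adjusted p = 5.9e-10), with 1.73 in SI and 1.42 in colon.

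Id2 (ENSMUSG00000020644, chr12:25093801-25096092) had 23.98, 31.0 and 38.8 CPM in SI of WT mice against 41.5, 52.4 and 59.1 CPM in the mutant. Its colon values were 8.51, 10.6 and 11.1 CPM for WT and 12.99, 14.2 and 18.01 CPM for 9S/T-A. Again no library of one genotype reached the range of the other, and the average log2 fold change was 0.64 (SE 0.0754, adjusted p = 5.4e-06, 12 of 12 pairs higher). Neither of the other ID genes passed. Id3 differed by 0.28 on the log2 scale (SE 0.0917, adjusted p = 0.14), higher in 5 of 6 pairs in each tissue, and Id1 had 0.15 (SE 0.0907, adjusted p = 0.52). The E protein genes had values of -0.19 for Tcf4 (adjusted p = 0.23), -0.075 for Tcf3 (0.52) and -0.065 for Tcf12 (0.60). Atoh1 itself (chr6:64729146-64731233) had WT and 9S/T-A medians of 86.5 and 74.2 CPM in SI and of 103.8 and 84.9 CPM in colon, with overlapping ranges, and was lower in 10 of 12 pairs. Its average log2 fold change of -0.28 (SE 0.0856) had an adjusted p of 0.11, and of 0.063 with the replicate block.

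Dll3 was the 1 common gene of 16 Notch ligands, receptors and modifiers. It encodes a divergent Delta protein that stays largely inside the cell and does not activate Notch on neighbouring cells. In SI, Dll3 (ENSMUSG00000003436, chr7:28293553-28302238) had 1.57, 1.87 and 3.31 CPM in WT, below the 4.22, 5.53 and 6.48 CPM of 9S/T-A. Its colon values were 0.204, 0.4005 and 0.592 CPM for WT and 0.860, 1.34 and 1.94 CPM for the mutant, again without overlap. The average log2 fold change was 1.51 (SE 0.164, adjusted p = 1.8e-06), higher in 12 of 12 pairs. The ligands that do activate Notch, Dll1 and Dll4, had log2 fold changes of 0.12 (adjusted p = 0.65) and 0.13 (adjusted p = 0.48), and the Dll4 values had opposite signs in SI (0.35) and colon (-0.079). Of 7 Notch target genes tested, 0 were common in either direction and 2 had an unadjusted p under 0.05, both lower, and Hes1 had -0.13 (adjusted p = 0.40). Of 18 BMP and TGF-beta genes, 0 were common, 4 had an unadjusted p under 0.05, and 2 (Acvr1 and Bambi) were called with the replicate block, both higher. Counts summed per animal called 0 of them, also with the block.

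The 250 bases before the RefSeq start of 4 genes that rose, and of 1 that fell (Spib, below), are shown to set the E-box content of these promoters beside their values. Letters are 5′ to 3′ on the strand of the gene (GRCm38.p6), and capitals mark every CANNTG, which reads the same on both strands.
Id4, chr13:48260866-48261115, + strand: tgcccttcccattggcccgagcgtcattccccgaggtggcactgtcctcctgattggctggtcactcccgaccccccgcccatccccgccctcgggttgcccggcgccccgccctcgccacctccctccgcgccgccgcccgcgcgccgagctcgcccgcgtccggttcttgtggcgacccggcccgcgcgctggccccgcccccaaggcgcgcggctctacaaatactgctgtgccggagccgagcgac
Id2, chr12:25096093-25096342, - strand: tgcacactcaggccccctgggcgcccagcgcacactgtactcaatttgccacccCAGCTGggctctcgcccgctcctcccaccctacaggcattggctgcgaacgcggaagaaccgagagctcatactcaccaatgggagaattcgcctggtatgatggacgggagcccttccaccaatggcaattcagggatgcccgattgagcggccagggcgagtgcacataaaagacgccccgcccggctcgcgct
Dll3, chr7:28301786-28302035, - strand: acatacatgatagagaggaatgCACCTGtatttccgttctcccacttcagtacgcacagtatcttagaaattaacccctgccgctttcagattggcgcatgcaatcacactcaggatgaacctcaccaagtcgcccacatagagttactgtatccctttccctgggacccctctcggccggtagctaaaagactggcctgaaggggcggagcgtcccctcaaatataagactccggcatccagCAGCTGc
Sct, chr7:141279134-141279383, - strand: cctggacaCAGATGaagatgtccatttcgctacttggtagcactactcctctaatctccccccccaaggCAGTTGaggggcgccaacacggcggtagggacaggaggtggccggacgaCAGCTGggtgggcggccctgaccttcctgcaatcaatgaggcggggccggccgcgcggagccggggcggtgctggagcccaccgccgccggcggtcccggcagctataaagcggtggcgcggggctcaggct
Spib, chr7:44532072-44532321, - strand: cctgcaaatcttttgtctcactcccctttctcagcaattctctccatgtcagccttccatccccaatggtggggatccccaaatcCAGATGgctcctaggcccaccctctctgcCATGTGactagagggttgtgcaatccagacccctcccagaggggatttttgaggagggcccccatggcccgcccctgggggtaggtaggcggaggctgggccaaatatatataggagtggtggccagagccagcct
The Id2, Dll3 and Sct windows each hold 1 CAGCTG, and the Id4 window holds 0 CANNTG. The Dll3 window lies inside the gene as the files place it. The Id4 window ends upstream of the gene start given above, so the bases next to that start are not shown. An E-box CANNTG was found in 58.5% of the first listed promoters of the 11420 tested genes with one, in 64.7% of 119 common genes that rose and in 61.9% of 84 that fell, and CAGCTG in 11.7%, 16.8% and 15.5%. These are matches of letters in a short window and say nothing of binding.

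**Figure D2:**
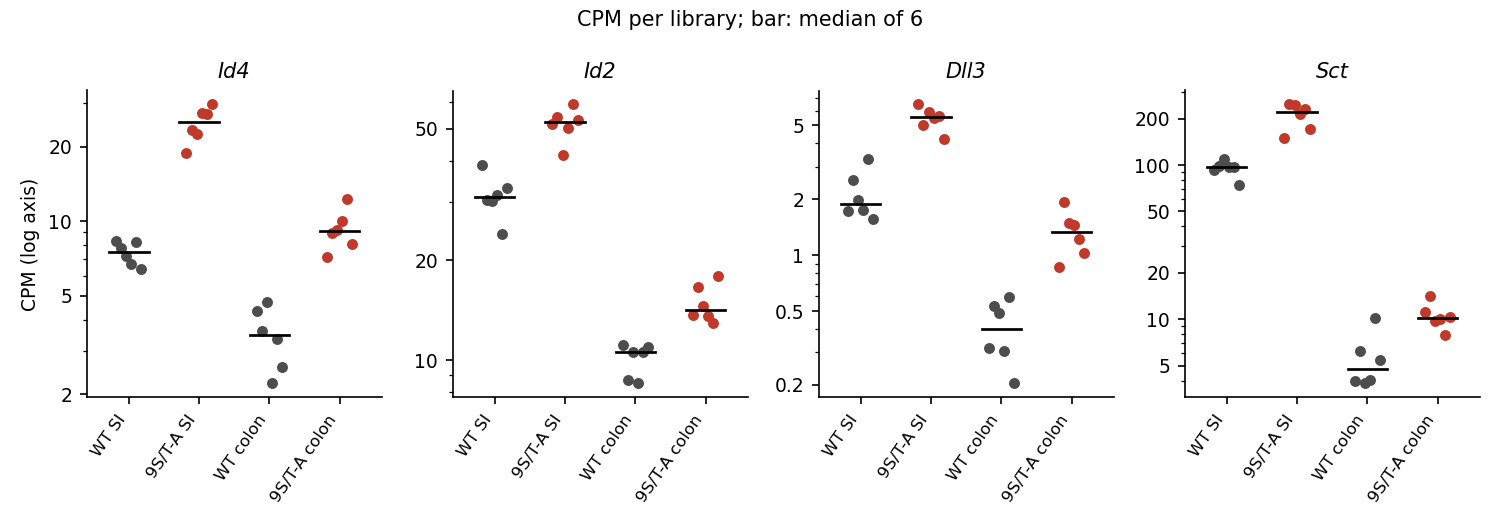
CPM on a log axis for Id4, Id2, Dll3 and Sct in each of the 24 libraries, WT in grey and 9S/T-A in red, with a bar at the median of 6. In SI all 6 libraries of 9S/T-A lie above all 6 of WT for each gene, and in colon the same holds except for Sct, where WT reaches 10.2 CPM and 9S/T-A starts at 7.89 CPM.

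Among 16 transcription factors of the secretory lineage, 1 was common. Sox4, a factor of endocrine and tuft progenitors, fell by 0.38 on the log2 scale (SE 0.0836, adjusted p = 0.013), with lower values in 12 of 12 pairs. With the animal as the replicate its adjusted p was 0.0585, and it was not called without number 3 or number 7. Spdef, which drives goblet cell maturation, had 0.17 (adjusted p = 0.29), and Gfi1, which acts downstream of ATOH1, had 0.14 (adjusted p = 0.48).

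Of 22 genes listed here as goblet cell products, 4 were common and all 4 were higher, 1 of them the hormone gene Sct. The median log2 fold change of the list, with Sct in it, was 0.26 against -0.0067 for all genes tested. Sct encodes secretin, a hormone of enteroendocrine cells, and was counted here and not among the endocrine genes below. It was the 1 gene of the list that moved in both tissues and was called with the animal as the replicate. That result is therefore no measure of goblet cells. Sct rose most. Its SI libraries had a lowest, median and highest of 74.5, 97.3 and 109.1 CPM for WT, and of 150.6, 222.8 and 247.5 CPM for the mutant (ENSMUSG00000038580, chr7:141278331-141279133). In colon, Sct had 3.83, 4.75 and 10.2 CPM for WT and 7.89, 10.1 and 14.1 CPM for 9S/T-A, so that the ranges met there. On average Sct rose by 1.03 on the log2 scale (SE 0.134, adjusted p = 2.8e-05, 11 of 12 pairs higher).

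Guca2a, which encodes the peptide guanylin, rose by 0.51 on the log2 scale (SE 0.108, adjusted p = 0.010), and Spink4, a goblet cell protease inhibitor, by 0.47 (SE 0.105, adjusted p = 0.013). Klk1, a kallikrein with many close paralogs that share reads, rose by 0.40 (SE 0.103, adjusted p = 0.042), a call that 7 of 24 fits without 1 library did not make. With the replicate block 6 of the 22 were called, all higher, with Ccl6 (adjusted p = 0.034) and Reg4 (0.038) added. The additive fit called 1 without number 3, 4 or 5, and counts summed per animal gave 1 call, or 2 with the block. Guca2a, Spink4 and Klk1 passed the test with the animal as the replicate, but Guca2a and Klk1 did not have an unadjusted p under 0.05 in colon, nor Spink4 in SI. The mucin Muc2 had WT and 9S/T-A medians of 26310 and 35600 CPM in SI and of 11840 and 17360 CPM in colon, a difference of 0.36 on the log2 scale (SE 0.11, adjusted p = 0.10, higher in 11 of 12 pairs). For Tff3, a goblet cell peptide, the value was -0.043 (adjusted p = 0.95), with a different sign in each tissue. Of 20 genes listed here as Paneth cell products, 1 rose (Guca2b, 0.46, adjusted p = 0.042) and 1 fell (Defa26, -0.52, adjusted p = 0.042). Neither passed with the animal as the replicate (adjusted p = 0.0742 for Guca2b and 0.0655 for Defa26). The log2 fold change of Guca2b was 0.38 in SI and 0.53 in colon. Which cells gave this rise was not tested, so it is no measure of Paneth cells. The additive fit called 0 of the 20 when any of numbers 2 to 6 was left out. Defensin paralogs share reads, and Defa26 was at most 0.480 CPM in every colon library.

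Tuft cells are chemosensory epithelial cells that depend on the transcription factor Pou2f3. Of 14 tuft cell genes tested, 4 were common and all 4 were lower, and 14 of 14 had a negative average change, with a median of -0.73. The background for this and later lists is all 17953 genes tested. Of those, 9355 had a negative average change, 1.75% were common and 4.65% were called with the replicate block. In SI, Pou2f3 (ENSMUSG00000032015, chr9:43123939-43210369) had 5.19, 7.745 and 11.7 CPM in WT, and 1.97, 3.47 and 5.91 CPM in the mutant. In colon the values were 1.17, 1.68 and 2.20 CPM for WT and 0.774, 1.04 and 1.86 CPM for the mutant. The ranges overlapped in both tissues, but Pou2f3 was lower in 11 of 12 same-numbered pairs. It fell by 0.87 on the log2 scale (SE 0.182, adjusted p = 0.0086).

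Spib, an ETS factor of tuft and M cells, was lower in 12 of 12 pairs. In SI it had 8.19, 12.2 and 15.3 CPM for WT against 3.38, 6.605 and 10.7 CPM for 9S/T-A, and in colon 2.20, 2.79 and 5.12 CPM against 1.09, 1.66 and 3.34 CPM, with overlap in both. Spib fell by 0.78 (SE 0.178, adjusted p = 0.017). Alox5ap, which presents arachidonic acid to 5-lipoxygenase for leukotriene synthesis, had medians of 5.595 and 2.02 CPM in SI and 0.751 and 0.311 CPM in colon. Its change was -1.05 (SE 0.248, adjusted p = 0.022), again lower in 12 of 12 pairs, and the adjusted p was 0.051 in 1 of the 24 fits that left out a library. Gfi1b fell by 1.04 (SE 0.264, adjusted p = 0.037), but in colon its change was -0.31 (unadjusted p = 0.34), and 14 of those 24 fits did not call it. Outside the list, Plcg2, a phospholipase of signalling in tuft and immune cells, fell by 0.60 (SE 0.103, adjusted p = 0.0010), lower in 12 of 12 pairs.

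With the replicate block, 11 of the 14 tuft genes were called, all lower, among them Trpm5, the cation channel of taste transduction (-0.74 in the additive fit, adjusted p = 0.26, and 6.0e-04 with the block), and Dclk1, a marker kinase (-0.72, 0.082 and 0.0044). Without number 7 the additive fit also called 11, while it called 3 without number 2, 1 without number 4 or number 5, and 0 without number 3 or number 6. With counts summed per animal it called 0, and 8 with the replicate block. Several of these genes (Spib, Alox5ap, Plcg2) are also expressed by leukocytes. Among the leukocyte markers, Ptprc (CD45) had 2.65, 3.10 and 8.48 CPM for WT and 1.25, 2.61 and 6.29 CPM for 9S/T-A in SI, and between 0.161 and 1.64 CPM in colon, and 13 of the 15 markers had a negative average change. Itgam was called lower with the replicate block (-0.41 in the additive fit, adjusted p = 0.058, and 0.019 with the block) and Jchain with the animal as the replicate (-1.41, 0.39 and 0.041). The Jchain values had opposite signs in SI (-1.71) and colon (0.75). The part of leukocyte RNA in the result was not tested. Vim, a marker of stroma that leukocytes also express, was the 1 common gene of 9 tested stromal and endothelial markers (-0.91, SE 0.214, adjusted p = 0.021), with medians of 9.12 and 3.68 CPM in SI and 1.52 and 1.12 CPM in colon. Its part was not tested either.

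Of 28 enteroendocrine genes, 4 were common and all 4 were lower, and 27 of 28 had a negative average change (all but Tph1, 0.037), with a median of -0.59. The other 24 did not pass. Of these, Pyy (0.51 in SI and -0.62 in colon) and Scg5 (0.42 and -0.55) had opposite signs by tissue. So did Gip (-0.59 and 0.34), Tac1 (-1.41 and 0.96) and Tph1 (0.42 and -0.39). The list leaves out Sct, a hormone gene that rose (above), and includes hormones as well as transcription factors of endocrine progenitors. Pax4, one of those factors, was lower in 12 of 12 pairs. In SI it had 1.80, 3.04 and 5.44 CPM for WT and 0.813, 1.72 and 2.24 CPM for the mutant. In colon it had 0.600, 0.800 and 1.496 CPM for WT and 0.331, 0.435 and 0.588 CPM for the mutant. The colon ranges did not overlap and the SI ranges did. Pax4 (ENSMUSG00000029706, chr6:28442334-28449353) fell by 1.03 (SE 0.199, adjusted p = 0.0036).

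Fev, a factor of serotonin cells and late endocrine progenitors, fell by 0.88 (SE 0.208, adjusted p = 0.023), again in 12 of 12 pairs. Insm1, a zinc finger factor of the whole endocrine lineage, fell by 0.81 (SE 0.215, adjusted p = 0.047), a call that 16 of the 24 fits without 1 library did not make. Gcg, which encodes proglucagon, had medians of 5.37 and 0.918 CPM in SI and 13.4 and 6.16 CPM in colon. Its average log2 fold change was -1.67 (SE 0.292, adjusted p = 0.0013), with -2.65 in SI and -0.89 in colon. With the animal as the replicate, Pax4 was called (adjusted p = 0.026) and Gcg (0.075), Fev (0.067) and Insm1 (0.065) were not. The replicate block called 13 of the 28, all lower, including Rfx6, Neurod1, Isl1, Nkx2-2 and Pax6. The additive fit called 2 without number 4, 5 or 6 and 6 without number 3, and counts summed per animal gave 0 calls, or 10 with the replicate block. Chga, a granule protein of most endocrine cells, had -0.36 (adjusted p = 0.45).

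**Figure D3:**
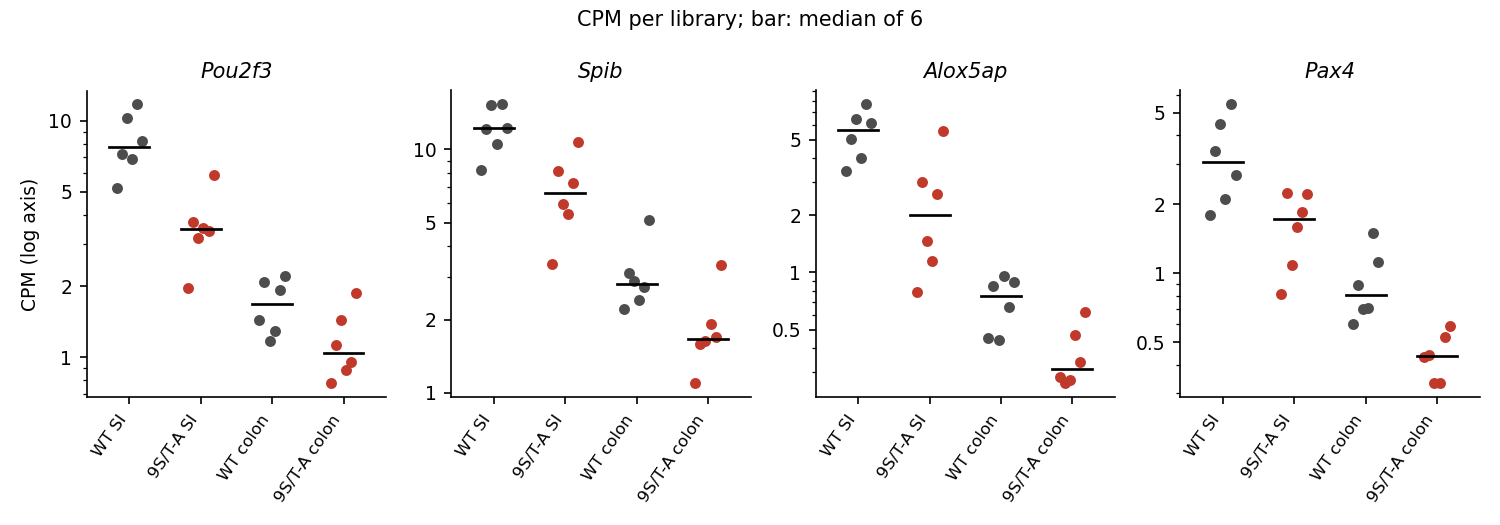
CPM on a log axis for the tuft genes Pou2f3, Spib and Alox5ap and the endocrine factor Pax4 in each of the 24 libraries, with a bar at the median of 6. The 9S/T-A medians (red) lie below the WT medians (grey) in both tissues, with overlapping ranges except for Pax4 in colon.

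Of 20 crypt stem cell genes, 3 were common and all 3 were lower, while the additive fit called 0 without number 3 and 1 without number 4, 5 or 6. Prom1 (CD133) fell by 0.32 (SE 0.0683, adjusted p = 0.0089, lower in 12 of 12 pairs), from medians of 203.4 to 156.4 CPM in SI and 162.4 to 128.3 CPM in colon. It lies in a stretch of chromosome 5 where other common genes also fell (below). Mex3a, an RNA-binding protein of slowly cycling Lgr5+ cells, fell by 0.50 (SE 0.114, adjusted p = 0.017) and Smoc2 by 0.35 (SE 0.087, adjusted p = 0.029). These last genes did not pass with the animal as the replicate (adjusted p = 0.053 and 0.078). Lgr5, the defining receptor of these cells, had -0.26 (SE 0.148, adjusted p = 0.47). Cdkn1c, the cell cycle inhibitor p57, fell by 0.59 (SE 0.135, adjusted p = 0.018, lower in 12 of 12 pairs), the 1 common gene of 19 cell cycle inhibitors and D cyclins. Cdkn1c was not called without number 3, 4, 5 or 6, nor with counts summed per animal. Its colon ranges did not overlap, with 3.78 CPM as the lowest of WT and 3.71 CPM as the highest of 9S/T-A.

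Cell cycle genes showed no shared change. Of 25 S phase and 25 G2 and mitosis genes, 0 were common and 0 had an unadjusted p under 0.05 for the average effect. Their medians were -0.37 and -0.40 in SI and 0.38 and 0.35 in colon. Mki67 had -0.31 in SI and 0.45 in colon, an average of 0.067 (adjusted p = 0.91). MHC class II genes (8 tested, medians of -1.64 in SI and 2.88 in colon), interferon response genes (32) and ER folding genes (25) held 0 common members each by edgeR, with 1, 7 and 2 at an unadjusted p under 0.05, all higher. Of 23 absorptive genes, 1 was common. Akp3, an intestinal alkaline phosphatase, rose by 1.86 (SE 0.351, adjusted p = 0.0030), but it was at most 0.0821 CPM in every colon library, so its average rests on SI. With the replicate block Apoc3 was called too (0.76 in the additive fit, adjusted p = 0.026 with the block), but its signs were opposite in SI (0.86) and colon (-0.34). Counts summed per animal called 0 of the 23. Of 14 reserve stem and regeneration genes, Mex3a fell and Ly6a (Sca-1) rose by 0.85 (SE 0.216, adjusted p = 0.036), though Ly6a had an adjusted p of 0.062 with the animal as the replicate.

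The rule for named genes ranks the protein-coding genes that moved in both tissues. Among those called with the animal as the replicate and above a mean level of 1 log2 CPM, the 12 largest rises included Id4, R3hdml, Dll3, Ppp1r3e, Parp3, Ces1c, Tmem254c, Tmem254a, Tmem254b, Sct and Asxl3. R3hdml, a secreted cysteine-rich protein, rose by 1.53 (SE 0.182, adjusted p = 6.3e-06), with medians of 5.34 and 17.6 CPM in SI and 0.237 and 0.623 CPM in colon. Ces1c, a carboxylesterase with close paralogs, rose by 1.22 (SE 0.14, adjusted p = 4.4e-06). Asxl3, a polycomb-associated factor, rose by 0.91 (SE 0.166, adjusted p = 0.0019). Each of these 3 genes was higher in 12 of 12 pairs.

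The 12 largest falls by the same rule included Rab2b, Alox5ap, Pou2f3, Acpp, Spib, Sh3bp1, Tspan6, Mreg, Adamts13, Plcg2 and Plxnb1. Rab2b, a small GTPase of Golgi traffic, fell by 1.14 (SE 0.163, adjusted p = 0.00011), with medians of 4.16 and 2.32 CPM in SI and 5.65 and 2.04 CPM in colon. Acpp, an acid phosphatase, fell by 0.80 (SE 0.103, adjusted p = 2.5e-05), lower in 12 of 12 pairs, with WT and 9S/T-A medians of 39.9 and 27.9 CPM in SI and 30.2 and 14.2 CPM in colon. Plxnb1, a semaphorin receptor, fell by 0.59 (adjusted p = 0.0030), Tspan6, a tetraspanin, by 0.71 (0.00092), Sh3bp1, an activator of GTP hydrolysis by small GTPases, by 0.76 (0.0010), Mreg, melanoregulin, by 0.69 (0.0057) and Adamts13, the von Willebrand factor protease, by 0.67 (0.0045).

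In 24 common genes, all of them also called with the animal as the replicate, no library of one genotype reached the range of the other in either tissue, 16 higher and 8 lower in 9S/T-A. Over all genes tested the number was 25 (0.139%), the other one being Rnase1, which was not called. Several of the 24 are processed pseudogenes, whose reads cannot be told apart with certainty from those of their parent genes, and the genes of this paragraph were chosen after their values were seen. Gm9613 (chr17:35561923-35562118) had 0 counts in all 12 WT libraries, and 4 to 19 counts in 9S/T-A SI and 16 to 28 counts in 9S/T-A colon. Against a floor of 3 counts over the 6 WT libraries it was at least 21.9-fold higher in SI and at least 38.5-fold higher in colon. Psmb5-ps (chr11:102659128-102659925) went the other way, with 326 counts over the 6 WT SI libraries and 2 over those of 9S/T-A, a ratio of 183 (95% exact interval 50.3 to 1520), and 409 against 2 in colon, a ratio of 225 (61.8 to 1860). Gm15610 and Tma7-ps rose by 4.39 (SE 0.211, adjusted p = 2.1e-13) and 3.63 (SE 0.202, adjusted p = 2.5e-12). Among protein-coding genes, Gad1, an enzyme of GABA synthesis, rose by 3.11 (SE 0.319, adjusted p = 6.4e-07), from a median of 0.247 to 2.39 CPM in SI and from 0.0382 to 0.432 CPM in colon. Kcnh2, a potassium channel, rose by 0.71 (adjusted p = 1.2e-05), and Twf2, an actin-binding protein, by 0.46 (adjusted p = 0.00021).

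By the rule for named genes, the noncoding and pseudogene falls above the same mean level were led by Rps3a3 (-1.03, adjusted p = 3.7e-06), Gm42566 (-0.85, adjusted p = 0.00015) and Gm12987 (-0.81, adjusted p = 9.3e-05). The 1 rise was the antisense gene A430078I02Rik (0.63, adjusted p = 0.0076).

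Many common genes had another common gene nearby in the genome. These counts include tandem paralogs that share reads, such as the Klk1, Sprr2, Tmem254, Plac9, Dynlt1 and Ear genes. Of the 314, 256 (81.5%) started within 5 Mb of another common gene, against 63.7% of the 17921 tested genes on the chromosomes, and 174 (55.4%) within 1 Mb, against 29.3%. Chromosome 14 held 31 common genes (5.34% of those tested there) and chromosome 9 held 34 (3.64%), against 1.75% of all genes, and 23 and 24 of them moved in both tissues and were called with the animal as the replicate. Between 50 and 55 Mb of chromosome 14, 13 of 70 tested genes were common (18.6%), among them Rab2b, Ppp1r3e, Ang, Rnase4 and Slc7a7. Between 105 and 110 Mb of chromosome 9, 14 of 113 were common (12.4%), among them Parp3, Twf2, Plxnb1 and Sema3f. Between 40 and 45 Mb of chromosome 5, 5 of 26 were common (19.2%), all lower, among them Prom1. Within 10 Mb of Atoh1 on chromosome 6, the targeted locus, 4 of 88 tested genes were common (4.55%).

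**Figure D4:**
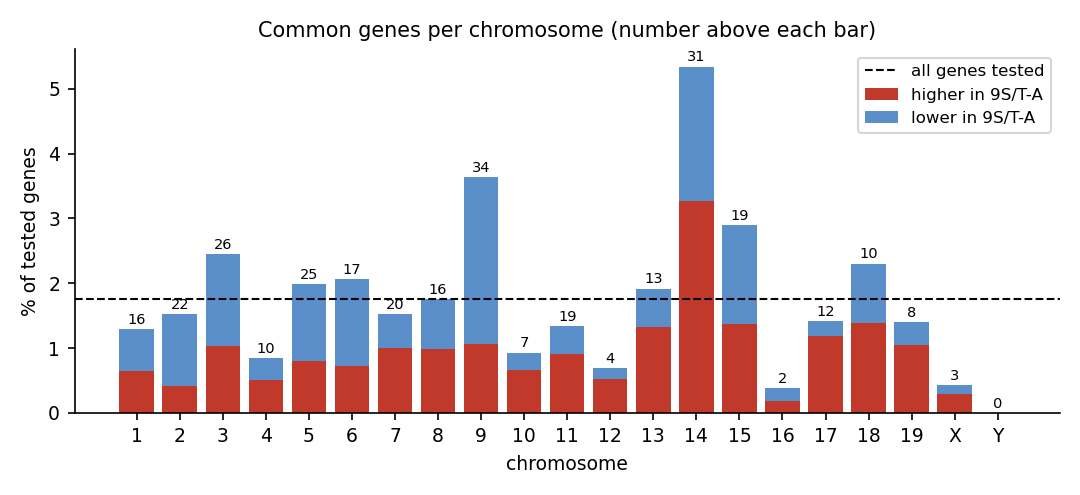
Share of the tested genes on each chromosome that were common genes, in percent, split into those higher (red) and lower (blue) in 9S/T-A, with the number of common genes above each bar. The dashed line is the share over all genes tested, 1.75%, and chromosomes 14 and 9 stand highest, at 5.34% and 3.64%.

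In some of these genes the WT libraries fell into steps by number, alike in SI and colon. Ppp1r3e, a subunit that directs protein phosphatase 1 to glycogen, had 3.045 to 3.87 CPM in the WT SI libraries numbered 2, 3 and 4 and 0.636 to 1.53 CPM in those numbered 5, 6 and 7. In WT colon the same numbers had 3.45 to 4.52 CPM and 0.608 to 0.997 CPM. All 12 libraries of 9S/T-A were between 4.985 and 8.17 CPM. Rnase1, a secreted ribonuclease of the same stretch, had 68.8 to 72.8 CPM in WT SI numbers 2, 3 and 4, 0.862 to 1.12 CPM in numbers 5, 6 and 7, and 89.9 to 152.3 CPM in 9S/T-A SI. It was not called in the additive fit (1.75, adjusted p = 0.16), while its adjusted p was 0.0076 with the animal as the replicate and 0.027 with the replicate block.

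The Tmem254 genes are near-identical copies on chromosome 14 that share reads, and Tmem254a, Tmem254b and Tmem254c rose by 1.18, 1.17 and 1.19 (adjusted p = 0.0016, 0.0026 and 0.0029). For Tmem254a, WT numbers 3, 6 and 7 had 8.98 to 11.1 CPM in SI and 12.0 to 21.9 CPM in colon, WT numbers 2, 4 and 5 had 24.1 to 29.1 CPM and 45.8 to 46.8 CPM, and all 9S/T-A libraries lay above both sets in their tissue. Cbx6, a polycomb protein, was at 1.496 CPM in WT SI number 5 and 1.52 CPM in WT colon number 5, against 5.79 to 8.30 CPM and 3.57 to 5.21 CPM in the other WT libraries. Parp3, a poly(ADP-ribose) polymerase that acts on DNA breaks, rose by 1.25 (SE 0.191, adjusted p = 0.00026). Number 7 was its highest library in each of the 4 groups, in SI at 12.2 CPM for WT and 22.9 CPM for 9S/T-A against 3.71 to 4.31 CPM and 10.7 to 12.8 CPM in the rest. These steps lie among WT libraries, none of which carries the 9S/T-A allele, and their cause was not tested.

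**Figure D5:**
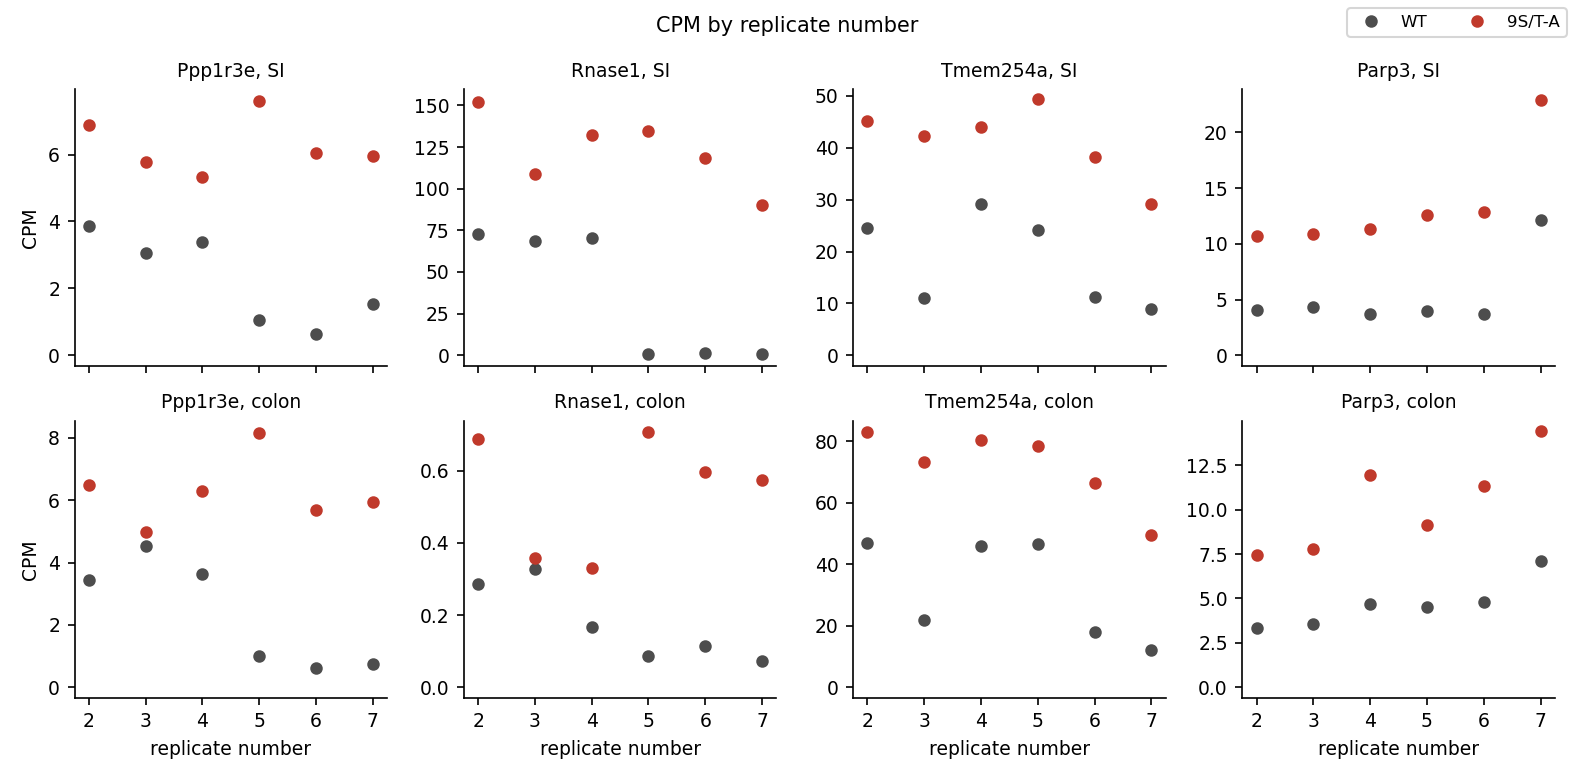
CPM by replicate number (x axis, 2 to 7) for Ppp1r3e, Rnase1, Tmem254a and Parp3 in SI (top) and colon (bottom), WT in grey and 9S/T-A in red. In WT, numbers 5 to 7 are low for Ppp1r3e and Rnase1, and numbers 3, 6 and 7 for Tmem254a, in SI and in colon alike, while the 9S/T-A libraries lie above the WT library of the same number in each panel.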

How the data were processed

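Gene counts of 24 bulk RNA-seq libraries were used as deposited. Per the paper's methods and the submitters' processing notes, the authors prepared stranded mRNA libraries, read 50 bp single ends, aligned with TopHat2 2.1.1 to GRCm38 and counted primary alignments over exons with featureCounts 1.5.2, counting the reverse strand, and tested within each tissue with DESeq2 1.14.1. The deposited unit is raw counts per gene. Of 45513 gene IDs in the files, 44671 (98.15%) were named from GENCODE vM21, and gene coordinates are those of the files.

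From these counts, edgeR 4.0.16 (R 4.3.3) was used with filterByExpr over the 4 groups (17953 genes kept), TMM scaling and the two-sided quasi-likelihood test of genotype with tissue as an additive term. Adjusted p is Benjamini-Hochberg over all genes tested. Tissue values came from 1 fit to the 4 groups. CPM are TMM-scaled except in the marker sums, which use plain totals. The fit with the animal (genotype and number) as a random block used limma 3.58.1 voom, with a within-animal correlation of 0.276. The biological coefficient of variation was 20.6%, and at 36 to 65.8 M counts per library it, not counting error, limits most values. Intervals and floors cover counting error only.

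With both tissues averaged, same-numbered animals of the 2 genotypes deviated together from their group means. The correlations were 0.375, 0.336, 0.539, 0.322, 0.181 and 0.839 for numbers 2 to 7, each over 0.1. Within SI alone they were 0.128, -0.0224, 0.373, -0.0669, 0.223 and 0.68, and within colon 0.475, 0.427, 0.437, 0.412, 0.0435 and 0.841. Of the 6 WT numbers, 3 in SI and 4 in colon correlated best with the same number of 9S/T-A. Same numbers also share sex. From the averaged values the numbers were taken to pair the samples. The fit with the replicate block is therefore given beside counts and list calls that it changes. The design carries no block in its additive fit.

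Genes were named by rule: among protein-coding genes that moved in both tissues, were called with the animal as the replicate and had a mean of at least 1 log2 CPM, the 12 largest rises and falls, up to 3 noncoding genes each way, up to 4 common members of each of 21 gene lists, and a set of fixed genes. Members and lists were chosen with earlier results of these data known, and 17 further genes after their values were seen. Some genes that the rule names are not reported here. Scripts were tested on simulated data. Alternatives were other scalings, filters, tools, covariates, animal-level sums, and leaving out each library or number. Promoters are those of RefSeq (GRCm38.p6).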

Additional observations from a re-analysis of the deposited data

Results flagged for a closer look

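Among the named genes, 308 groups of 6 values were screened for a library far from the other 5, and 18 were found, where chance gives about 1 in 20. Of these, 7 were libraries numbered 7. They were Parp3 at 22.9 CPM in 9S/T-A SI and 12.2 CPM in WT SI, Rab2b at 3.28 CPM in 9S/T-A colon, Spib at 3.34 CPM in 9S/T-A colon and 5.12 CPM in WT colon, Akp3 at 4.41 CPM in WT SI, and Muc2 at 1.14e+04 CPM in 9S/T-A colon. Number 2 had Plcg2 at 14.9 CPM in WT SI, Tcf3 at 55.4 CPM in 9S/T-A SI and ENSMUSG00000091089 at 0.0524 CPM in 9S/T-A SI, where the other 5 libraries had 0. Number 3 had Insm1 at 3.94 CPM and Vim at 1.94 CPM in 9S/T-A colon, and Plcl1 at 0.284 CPM in WT SI. Number 4 had Plcg2 at 7.59 CPM in 9S/T-A colon and Tcf12 at 67 CPM in WT SI. The others were Guca2b at 82.5 CPM in 9S/T-A colon number 5, Cbx6 at 1.5 CPM in WT SI number 5 and Rps3a3 at 130 CPM in WT colon number 6. For none of the 77 named genes did the genotype effect differ between SI and colon by the interaction test.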

How the results depend on the processing

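The 332 genes called, 314 of them of the same sign, became 834 and 805 with the replicate block, 547 and 526 by DESeq2, 130 and 103 with counts summed per animal, 169 and 158 with mean log2 CPM per animal, and 510 and 484 at an adjusted p under 0.1. Leaving out 1 library gave 257 to 459 called (244 to 431 of the same sign), and leaving out 1 number gave 159 (without number 4) to 465 (without number 7), 148 to 446 of the same sign. With the replicate block and 1 number left out, chosen after seeing the data, the range was 368 to 1288 (356 to 1265 of the same sign), with 1288 without number 2 and 593 (575) without number 7. The block also raised genes that moved in both tissues from 209 to 493 and genes called with the animal as the replicate from 253 to 1310, a fit in which the within-animal correlation was -0.051 and the animal no longer acts as the replicate, while counts summed per animal with the block gave 353 (298 of the same sign), and a block of genotype and number raised the interaction count from 74 to 342. The cause of these shifts was not tested, apart from the fewer samples of the sums and left-out libraries. Within 1 Mb, 174 common genes had another, against 256 within 5 Mb. Of 77 named genes, 40 kept direction and side of the threshold under every alternative with all libraries, and 65 in every fit without 1 library. Mki67 turned to -0.0081 with plain library totals, and Tff3 to 0.15 with counts summed per animal, 0.13 with the block added, and, leaving out 1 library, lay between -0.12 and 0.020, above 0 without 9S/T-A colon 6 (0.0022), 9S/T-A colon 7 or WT colon 2 (0.0091). Neither gene passed the test in any of these.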
